A study of Mus musculus with 2 samples.

Results

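Cytosolic ribosomal protein genes were taken by symbol: Rpl or Rps followed by a number, with an optional a, l, x or y ending, together with Rplp0, Rplp1, Rplp2 and Rpsa. Among probe sets annotated to a single gene, 59 such genes were found out of 19938 genes in all, 22 of the small and 37 of the large ribosomal subunit. Each gene was represented by its probe set with the highest mean over both arrays. The study hybridised RNA of cortical thymic epithelial cells (cTECs) to 2 Affymetrix arrays, 1 from Aire transgenic mice (Tg) and 1 from control mice (non-Tg). In the Tg mice Aire, the transcriptional regulator of medullary thymic epithelium, was expressed from a semi-knockin under the promoter of the gene for β5t (Psmb11), a proteasome subunit of the thymic cortex. Both groups were of the NOD strain, which is prone to autoimmune diabetes, and were taken at day 7, and the source labels name 7 Tg and 5 non-Tg, read here as pooled animals. The labels give no further allele for the controls and do not say how the cells were isolated. With 1 array per group there was no replicate error, so every value below describes these 2 arrays, and no p-value was computed.

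Ribosomal proteins coat the ribosomal RNAs of the small subunit, which reads the mRNA, and of the large subunit, which forms the peptide bonds. They are needed in roughly equal numbers by every ribosome, and their mRNAs are among the most plentiful of any cell. Many of these mRNAs begin with a tract of pyrimidines (a terminal oligopyrimidine tract), through which mTOR and the RNA-binding protein Larp1 adjust how much of them is translated. Mammalian genomes carry many processed copies of these genes, so a probe can read more than 1 locus.

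The sequence around the start sites was searched for runs of pyrimidines. The RefSeq promoter table (GRCm38.p6) held 47 of the 59 genes, and Rplp1 was among the 12 without an entry. A window of 30 bases was read from 10 bases before the annotated start, which is the eleventh letter, and a run of at least 8 consecutive C or T letters on the transcribed strand was searched for. Such a run was found in 15 of the 47 genes (31.9%), against 13.0% of all 27025 genes in the table. It spanned the start letter itself in 13 of the 47 (27.7%), against 4.59% of all genes, while in Rpl19 and Rps12 it lay to one side. A run is a match of letters and was not shown to be a tract at the end of the mRNA. The first 4 windows below are shown for genes that hold the run, in capitals, and the last 2 for genes at the high end of the ratios described below, in which it was not found.
Rps6, chr4:86857348-86857377, minus strand: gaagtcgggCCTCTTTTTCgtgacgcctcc
Rps10, chr17:27635225-27635254, minus strand: gcgcacgCCCCTTCCTTTCCagcctccgcc
Rplp2, chr7:141447641-141447670, plus strand: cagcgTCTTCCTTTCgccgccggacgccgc
Rpl28, chr7:4792955-4792984, plus strand: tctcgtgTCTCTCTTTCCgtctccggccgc
Rpl12, chr2:32961702-32961731, plus strand: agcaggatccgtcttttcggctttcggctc
Rps28, chr17:33824543-33824572, minus strand: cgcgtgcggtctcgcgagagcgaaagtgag

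A match depends on the annotated start, and no match says only that these letters are not in this window. Over the 300 bases of each promoter, searched on both strands, CGGAAG, the core bound by ETS family factors, stood in 32 of the 47 genes (68.1%) and in 18.8% of all genes in the table. TATAAA, the TATA box, stood in 6 of the 47 (12.8%) and in 15.7% of all genes. CCAAT stood in 14 (29.8%) and in 41.1%, and the palindromic motif of Nrf1 in 2 (4.26%) and in 1.07%. Many genes of the table were not expressed here, so the shares were also taken over the 9138 genes with an entry whose level passed the filter explained below. Of these, 34.1% held CGGAAG, against 70.5% of the 44 ribosomal protein genes that passed. TATAAA stood in 9.12% of them, against 13.6% of the 44, so the order for TATAAA turned with the genes it was set against. Among these 44 genes the median log2 ratio was -0.01 in the 15 with a pyrimidine run and -0.01 in the 29 without. The ratio ranged from -0.20 to 0.10 in those with the run. It ranged from -0.12 to 0.70 in those without. The 6 genes with TATAAA had a median of 0.12 and a range from -0.06 to 0.18, against a median of -0.01 in the other 38. With CCAAT the median was 0.04 in 14 genes, against -0.01 in 30 without, and with CGGAAG it was -0.01 in 31, against -0.02 in 13 without.

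Levels are given as deposited, on a log2 scale, and the ratio is the Tg level minus the non-Tg level after values under 4.80 (the 25th percentile of all values) were raised to that floor. A level depends on the probes as well as on the RNA, so levels of different probe sets are not ranked here. Genes at or above the array median (5.43 for Tg, 5.45 for non-Tg) on either array were said to pass the filter. Of the 59 genes, 56 passed, against 11422 of all 19938 genes, and 34 of the 56 had a mean level of 11 or more.

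The transgene and the cell type were checked first. Aire was 7.33 on the Tg array and 6.06 on the non-Tg array. Psmb11, the source of the promoter, was 10.51 and 10.15. All 14 cTEC markers listed passed the filter, with ratios from 0.01 to 0.57 and a median of 0.13, and none was 2-fold apart. Of the 12 thymocyte markers measured, 11 passed the filter, with a median ratio of -0.04 and 8 of the 11 below 0. Their ratios ranged from -0.68 (Thy1, 8.89 in Tg and 9.57 in non-Tg) to 0.21 (Themis). Cd3d had -0.49, and 3 of the 11 were above 0. The summed log2 level of the 12 thymocyte markers was 98.6 on the Tg and 100.1 on the non-Tg array. The part of thymocyte RNA in the ribosomal protein values was not tested. In bulk RNA, fewer cells of a type and less RNA per cell cannot be told apart. Macrophage, B cell and erythroid markers had 6 of 19 measured genes past the filter. Some markers of other stromal cells also passed. The filter is the array median, which 11422 of all 19938 genes reached, so passing alone does not show that a cell type was present. Fibroblast markers had 5 of 7 past the filter with a median ratio of 0.20, the highest being Postn at 8.09 in Tg and 7.59 in non-Tg (0.51). All 6 endothelial markers passed, with a median of 0.06 and ratios from -0.25 to 0.48 (Pecam1). Medullary epithelial markers had 10 of 12 past the filter with a median of 0.07, and Aire itself was the 1 that was 2-fold apart. The part of these cells in the ribosomal protein values was not tested.

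Ribosomal protein genes had nearly the same level on both arrays. Of the 56 that passed, 0 had a Tg level at least 2-fold higher, against 0.797% of all 11422 genes tested, and 0 had one at least 2-fold lower, against 0.376%. At those background shares fewer than 1 gene of 56 would be counted in either direction. At 1.5-fold, 1 of the 56 was apart (Rpl12), against 7.86% of all genes. At 1.2-fold, 3 were apart (Rpl12, Rps27l and Rplp1), against 35.7%. Of the 56 ratios, 51 (91.1%) lay within 0.2 of 0, against 52.7% of all genes past the filter.

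**Figure D1:**
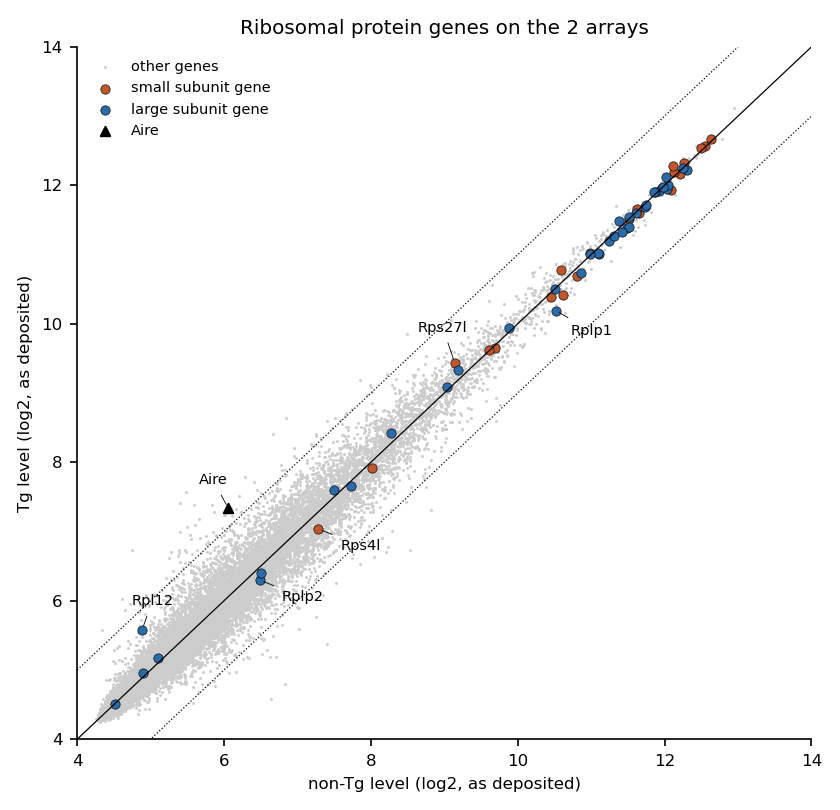
Log2 level of each gene on the Tg array (vertical axis) against the non-Tg array (horizontal axis). Points are genes, coloured by ribosomal subunit or grey for other genes, the solid line is equality and the dotted lines are 2-fold. The 59 ribosomal protein genes lie along the line of equality and inside the dotted lines, while Aire (7.33 in Tg, 6.06 in non-Tg) lies outside.

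The centre of the family lay near 0. The median ratio was -0.01, with a range from -0.32 to 0.70, and the median of all 11422 genes was 0.01. The ratio was above 0 for 24 of the 56 (42.9%) and below 0 for 32, against 50.6% of all genes above 0. The count on each side of 0 depends on the scaling. With each array centred on its own median, which shifts every ratio by 0.02, 30 were above 0 and 26 below (53.6% above). The family median then turned to 0.01. Other genes shift as well, and their share above 0 was not recomputed. The 53.6% therefore cannot be set against the 50.6% of all genes as deposited. The 22 small subunit genes had 11 ratios above 0 and 11 below, with a median of 0.01. The 34 large subunit genes past the filter had 13 above and 21 below, with a median of -0.02. The small subunit median turned to -0.01 with the second brightest probe set of each gene and to -0.00402 with quantile normalization.

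Ratios were widest in dim genes. The SD of the ratio over the 56 genes was 0.144, against 0.331 over all genes past the filter. Rpl12, which is dim, carried much of it, and without it the SD was 0.109. In other genes the SD fell with each step in level, and in ribosomal protein genes it did not fall at every step. At mean levels under 8 the SD was 0.321 in 7 ribosomal protein genes, Rpl12 among them, and 0.339 in 9601 other genes. From 8 to 9 there was only 1 ribosomal protein gene. From 9 to 10 the SD was 0.116 in 6 ribosomal protein genes and 0.256 in 433 other genes. From 10 to 11 it was 0.153 in 8 and 0.204 in 189. From 11 to 12 it was 0.0582 in 22 and 0.138 in 70. At 12 and above it was 0.0852 in 12 and 0.0999 in 23. Over the 48 ribosomal protein genes with a mean level of at least 9, 0 were 1.5-fold apart, against 1.97% of the 763 genes at or above it. At 1.2-fold, 2 (4.17%) were apart, against 20.2%. The 763 include the 48, whose median level was 11.5, against 9.74 in the other 715. These shares are therefore not matched for level. Of these 48, 21 (43.8%) had a ratio above 0 as deposited, against 58.2% of the 763. These are descriptions, since genes on 1 pair of arrays are not replicates.

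**Figure D2:**
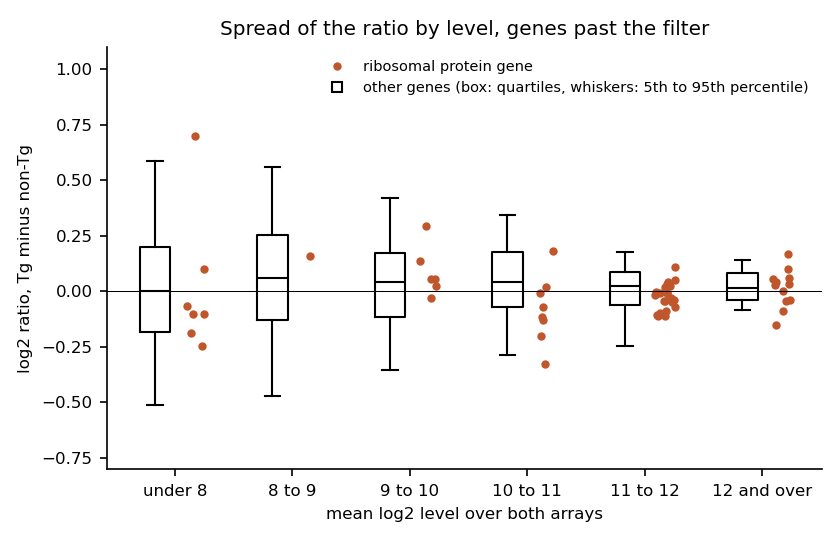
Log2 ratio (Tg minus non-Tg, vertical axis) in 6 ranges of mean log2 level (horizontal axis) for genes past the filter. Orange points are single ribosomal protein genes, and boxes show quartiles with 5th to 95th percentile whiskers for other genes. The boxes narrow with level, to an SD of 0.0999 in the brightest range, the ribosomal protein genes have their smallest SD (0.0582) from 11 to 12, and Rpl12 at 0.70 stands alone in the dimmest.

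Several probe sets read the same gene, and they gave almost the same ratio. The 59 genes had 215 single-symbol probe sets, from 1 to 14 per gene. Of these genes, 39 had 2 or more probe sets above the filter, 195 in all, and in them the SD of the ratio within a gene was 0.0339. The SD between the means of the 39 genes was 0.105. In 28 of the 39 genes every probe set lay on 1 side of 0. Probe sets of a gene share RNA, array and often sequence, so the 0.0339 leaves out how much mice, pools or amplified cDNA differ. Between the brightest probe sets of other genes the spread was wider, an SD per probe set of 0.311 in 619 genes against 0.0413 in the 39. These genes were not matched for level. Other genes past the filter had a median level of 6.39, against 11.4 in the ribosomal protein genes, and dimmer genes have wider ratios.

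**Figure D3:**
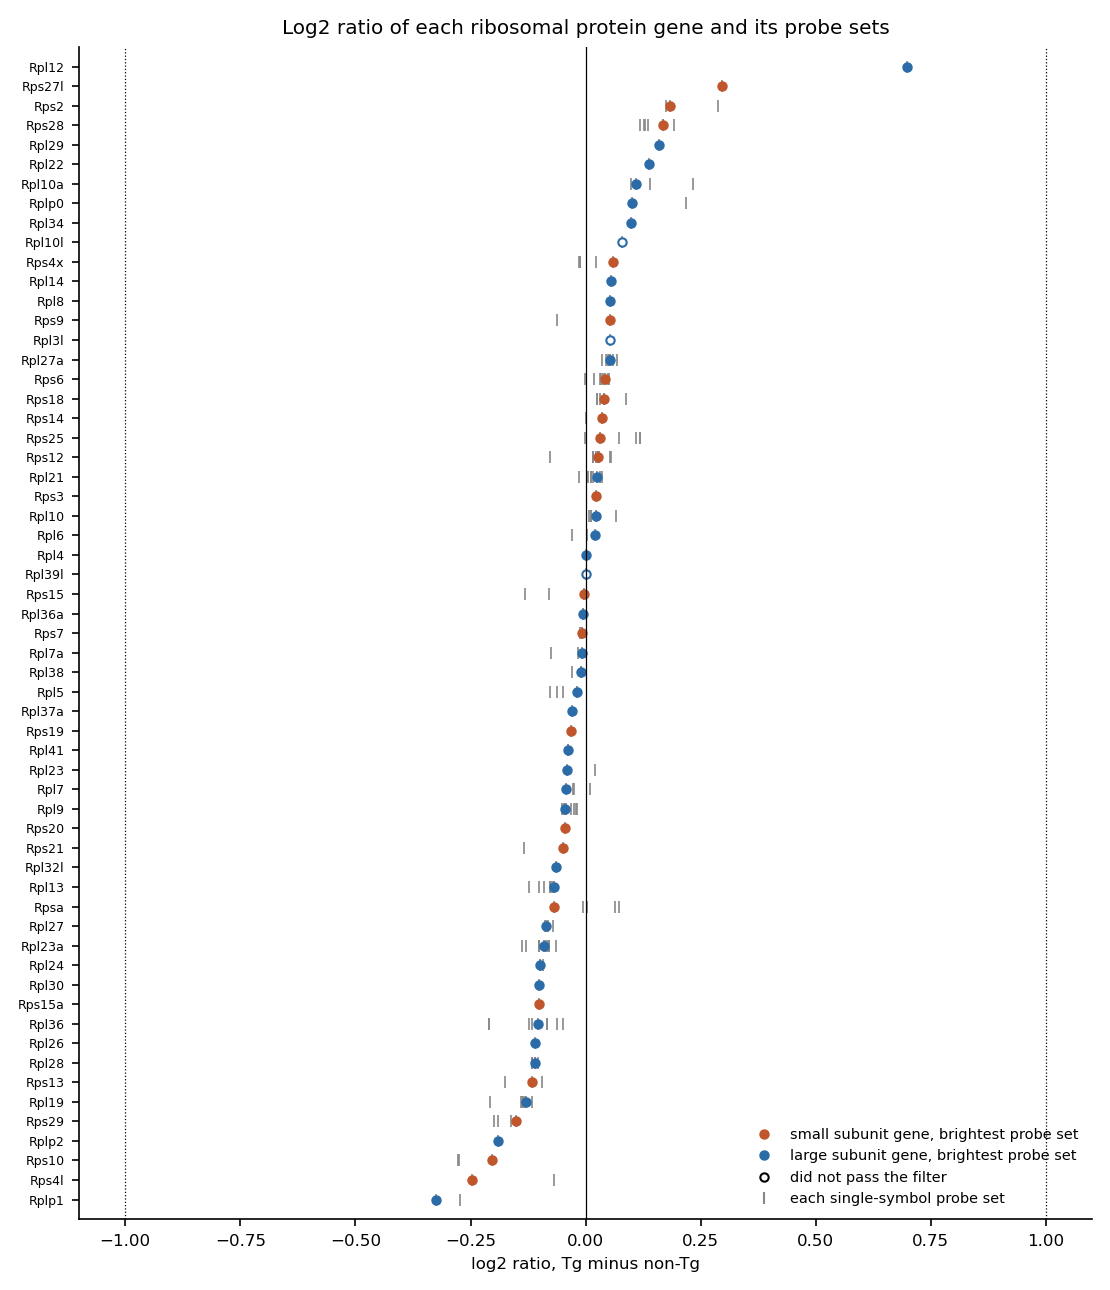
Log2 ratio (Tg minus non-Tg, horizontal axis) of each of the 59 ribosomal protein genes, ordered by ratio. Circles are the brightest probe set, open where the gene did not pass the filter, grey ticks are all single-symbol probe sets of the gene, and dotted lines mark 2-fold. No circle or tick reaches a dotted line, and ticks of a gene lie close to its circle, as for Rps28 with 7 between 0.12 and 0.19.

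The lowest ratio was in the stalk of the large subunit. Rplp1 and Rplp2 are the acidic proteins that draw elongation factors to the ribosome. Rplp1 read 10.19 on the Tg array and 10.52 on the non-Tg array. Its ratio of -0.32 (1.25-fold lower) was the lowest of all 59 genes. Its other probe set read 8.98 and 9.26, a ratio of -0.27. Both probe sets thus put Rplp1 lower on the Tg array by a similar amount. Rplp2, with 1 probe set, was 6.30 in Tg and 6.49 in non-Tg (-0.19). Rplp0, which anchors these proteins to the ribosomal RNA, went the other way, at 12.12 in Tg and 12.02 in non-Tg (0.10), and its second probe set had a ratio of 0.22. The 3 stalk proteins therefore did not share a direction on these arrays.

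Rpl12, at the base of the stalk, had the highest ratio, but only in its single-symbol probe set. That probe set read 5.58 in Tg against 4.88 in non-Tg, giving a ratio of 0.70 (1.62-fold higher), close to the filter on the Tg array and close to the floor on the other. The array holds 8 more probe sets whose annotation names Rpl12 beside another gene. In 7 of them, shared with a predicted gene, levels were 10.4 to 12.4 in Tg and 10.5 to 12.4 in non-Tg, with ratios from -0.06 to -0.01. The remaining one, shared with the small nucleolar RNA gene Snora65, read 5.37 and 5.23 (0.13). The difference of Rpl12 thus appears in 1 dim probe set and not in the 7 bright ones.

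Such shared probe sets were compared for the other genes as well. In 16 of the 59 genes a shared probe set had a Tg level of at least 6. The brightest of them differed from the single-symbol ratio by a median of 0.05 and by more than 0.1 in 5 genes (Rpl12, Rpl26, Rpl29, Rpl34 and Rps19). Rpl34 had a ratio of 0.10 in its single-symbol probe set (7.60 in Tg) and -0.07 in the brightest shared one (11.16). Rpl29, a basic protein of the subunit surface, had 0.16 and -0.01. Rps19, the gene most often mutated in Diamond-Blackfan anaemia, had -0.03 and 0.08. Rpl30 and Rps15a kept their side of 0, at -0.10 and -0.05 for Rpl30 and -0.10 and -0.05 for Rps15a. Of all 239 shared probe sets, 0 were 2-fold apart.

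**Figure D4:**
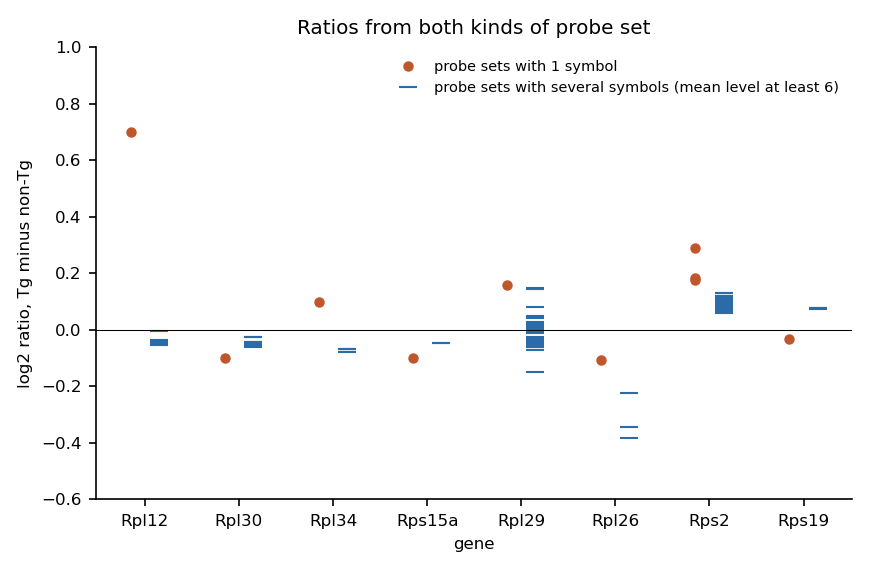
Log2 ratio (Tg minus non-Tg, vertical axis) of single-symbol probe sets (circles) and of probe sets with several symbols and a mean level of at least 6 (bars) for 8 genes chosen after their values were seen. For Rpl12 the circle at 0.70 stands apart from 7 bars between -0.06 and -0.01, while for Rps2 circles and bars all lie above 0.

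Proteins along the path of the mRNA had ratios on both sides of 0, none of them 1.2-fold apart in its brightest probe set. Rps2 and Rps3 line the channel by which the mRNA enters the small subunit. Rps2 was 10.77 in Tg and 10.59 in non-Tg (0.18), and its other probe sets had 0.17 and 0.29. The 17 probe sets that Rps2 shares with a predicted gene lay between 0.06 and 0.13, so that all 20 were above 0. Rps3 was 9.63 and 9.60 (0.02). Rps15, near the decoding site, was 11.97 on both arrays, with other probe sets down to -0.13. At the mRNA exit, Rps28 was 12.29 in Tg and 12.12 in non-Tg (0.17), and its 7 probe sets lay between 0.12 and 0.19. Rps14 was 12.67 and 12.63 (0.03). Rpsa, also known as a laminin-binding protein, was 10.38 and 10.45 (-0.07), and its 5 probe sets fell on both sides of 0. Of the genes on this path read by shared probe sets only, Rps23, at the decoding centre, had 6 probe sets from -0.20 to -0.12, and Rps26, at the mRNA exit, had 3 from -0.13 to -0.07.

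Elsewhere in the small subunit several genes were slightly lower on the Tg array. Rps10, a protein of the subunit's head that is ubiquitinated when ribosomes collide, was 10.42 in Tg and 10.62 in non-Tg (-0.20, 1.15-fold lower). Its other probe sets had -0.27 and -0.28. Rps29, a small zinc-binding protein, was 11.94 and 12.09 (-0.15), and its 4 probe sets lay between -0.20 and -0.15. Rps13 had a ratio of -0.12, with probe sets from -0.18 to -0.10. Rps6, the substrate of the S6 kinases, was 12.54 in Tg and 12.50 in non-Tg (0.04), and its 8 probe sets lay between 0.00 and 0.05. These small differences recurred across probe sets of a gene, but with 1 array per genotype their size cannot be set against the variation between mice.

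Of the 4 genes of the peptide exit tunnel among the 59, 3 had ratios below 0, with a median of -0.10. Rpl4, whose loop forms the tunnel's narrow part, was 12.25 on both arrays (0.00). Rpl19 was 10.73 in Tg and 10.86 in non-Tg (-0.13), with 7 probe sets from -0.21 to -0.12. Rpl23a, the docking site of the signal recognition particle, was 11.95 and 12.04 (-0.09), and its 13 probe sets lay between -0.14 and -0.07. Rpl26, known for binding the p53 mRNA, was 11.40 and 11.51 (-0.11). The 3 shared probe sets of Rpl26 had ratios from -0.38 to -0.23. Of the tunnel genes not counted among the 59, Rpl17 had 0.01, Rpl31 -0.08, Rpl35 -0.03 and Rpl39 -0.06 in their brightest shared probe set.

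At the interface where transfer RNAs and the other subunit bind, Rpl10, which joins the large subunit last, was 11.54 in Tg and 11.52 in non-Tg (0.02). Rpl8, beside the peptidyl transferase centre, was 9.94 and 9.89 (0.05). Rpl24 was 11.01 and 11.11 (-0.10). Rpl41, the smallest ribosomal protein, was 11.69 and 11.73 (-0.04). Rpl5 binds the small ribosomal RNA of the large subunit together with Rpl11, and that complex restrains the p53 inhibitor Mdm2. Rpl5 was 11.60 and 11.62 (-0.02), and Rpl11, read by shared probe sets only, had a ratio of -0.05. None of these genes was 1.2-fold apart.

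Among the 56 genes past the filter, others of the 10 lowest ratios were Rpl28 (-0.11), Rpl36 (-0.10) and Rps4l. Rpl28 was 11.38 in Tg and 11.49 in non-Tg, and its 5 probe sets lay between -0.12 and -0.10. The 9 probe sets of Rpl36 lay between -0.21 and -0.05. Among the 10 highest were Rpl22, at 9.33 in Tg and 9.19 in non-Tg (0.14), which mice need for the development of αβ T cells, and Rpl10a, at 11.48 and 11.38 (0.11) with 4 probe sets from 0.10 to 0.23.

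Copies with restricted or regulated expression are the members nearest to the question of the study, since Aire is known for transcribing genes of other tissues. Rpl3l, the muscle copy of Rpl3, was 4.95 in Tg and 4.90 in non-Tg. Rpl10l, the testis copy of Rpl10, was 5.17 and 5.09. Rpl39l, the testis copy of Rpl39, was 4.50 and 4.51, under the floor on both arrays. These are the 3 genes of the 59 that did not pass the filter on either array, and differences between RNAs this close to background could not be seen. Their ratios, 0.05, 0.08 and 0 at the floor, give no size for such a change.

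Rps27l, a copy of Rps27 that p53 induces, read 9.44 in Tg against 9.14 in non-Tg in its 1 probe set (ratio 0.30, 1.23-fold higher). Its partner Rps27, read only by 2 shared probe sets, was 9.79 and 9.98 in the brighter one (-0.19). Rps4l, annotated in RefSeq as a transcribed pseudogene, was 7.04 and 7.28 (-0.25), and its second probe set had -0.07. Rpl7l1, a copy outside the naming rule, was 6.19 and 6.42 (-0.23). The partners Rpl7 and Rps4x had ratios of -0.04 and 0.06. In their brightest probe sets Rps4l and Rpl7l1 thus had wider ratios than these partners, at levels where all genes have wider ratios. Rps27l and Rps27 both read between 9 and 10, where the ratios of 433 other genes had an SD of 0.256. Whether Rps27l and Rps27 differ beyond that spread was not tested. Rpl32l had -0.06, and the copies Rpl36al and Rpl22l1, in shared probe sets only, had 0.07 and 0.08.

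The X-linked genes were level. Rps4x was 12.33 in Tg and 12.27 in non-Tg, Rpl10 11.54 and 11.52, and Rpl36a 11.98 on both arrays, with ratios of 0.06, 0.02 and -0.01. On the same arrays Xist, the RNA of the inactive X chromosome, had levels of 7.78 (Tg) and 6.28 (non-Tg). The Y-linked Eif2s3y had 6.40 in Tg and 7.36 in non-Tg (-0.95). Uty, also Y-linked, did not pass the filter and read 4.94 in Tg and 5.45 in non-Tg (-0.51). Kdm5d, a further Y-linked gene, read 6.08 in non-Tg with a ratio of -0.08. Whether the pooled Tg and non-Tg mice differed in sex was not tested.

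Another 16 ribosomal protein genes that meet the naming rule were read only by probe sets with several symbols. In the brightest shared probe set, the 16 had ratios from -0.29 to 0.20, with a median of -0.04, 6 above 0 and 10 below. Rpl37 was the 1 gene of the 16 that was 1.2-fold apart, at 11.29 in Tg and 11.58 in non-Tg (1.23-fold lower). Rps16 had the highest ratio, 0.20, and Rps23 had -0.17. Fau and Rps3a1, ribosomal proteins under other names, had 0.04 and -0.06. The second brightest probe set of Fau had 0.22, and the 2 shared probe sets of Rps3a1 had -0.09. The SD over the 16 was 0.121, against 0.144 in the 56. In the 56 without Rpl12 it was 0.109, and in the 48 with a mean level of at least 9 it was 0.102.

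Some ribosomal protein genes carry small nucleolar RNA genes in their introns, and those measured did not all have the ratio of their hosts. RefSeq places 38 of them inside 19 of the 59 genes, and 11 had a single-symbol probe set, 5 of which passed the filter. Snora3, inside Rpl27a, was 6.53 in Tg and 7.85 in non-Tg (-1.33), while Rpl27a had a ratio of 0.05. Snord15b, inside Rps3, was 7.10 and 5.61 (1.49), while Rps3 had 0.02. These 2 of the 5 were 2-fold apart, against 0.797% of all genes past the filter higher and 0.376% lower. Other small RNA probe sets were not counted. Snora33 in Rps12 had 0.04, close to its host (0.03). Snora52 in Rplp2 (0.54) and Snord16a in Rpl4 (-0.79, under the floor in Tg) passed only on the array where they were higher. Their hosts had -0.19 and 0.00. The 6 that did not pass had ratios from -0.09 to 0.10. Whether these probe sets read the small RNA or an intron was not tested.

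Genes that build or use ribosomes had wider ratios, mostly at levels where all genes do. The mitochondrial ribosome, which translates the mitochondrial genome, is built from its own proteins. Of 77 such genes measured, 77 passed the filter, 1 was 2-fold higher and 1 was 2-fold lower, with a median of -0.13 and 30 ratios above 0 against 47 below. Mrps18a was 8.23 in Tg and 7.20 in non-Tg (1.04, 2.05-fold higher), but 0.99, under 2-fold, with quantile normalization. Mrpl40 was 6.91 and 8.15 (-1.24, 2.36-fold lower). The SD over these 77 genes was 0.348, against 0.331 over all genes past the filter, and their median stayed between -0.15 and -0.11 under the other scalings.

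Ribosome assembly factors had 55 of 56 measured genes past the filter and 0 that were 2-fold apart, with a median of 0.08 and 33 ratios above 0 against 22 below. The highest were Gtpbp4 (0.76), a nucleolar GTPase of large subunit assembly, and Utp4 (0.74), of the small subunit processome. The lowest were Rexo4 (-0.75) and Imp3 (-0.61), the latter also of the processome. RNA polymerase I genes had 14 of 15 past the filter, a median of 0.08 (0.28 with a filter at the 75th percentile on both arrays) and 0 that were 2-fold apart. Taf1a, a subunit of the polymerase's promoter selectivity factor, was 7.61 in Tg against 6.76 in non-Tg (0.85), and the large catalytic subunit gene Polr1a had 0.60. Polr1e (-0.34) and Twistnb (-0.11) were lowest.

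Translation factors bring mRNA, transfer RNA and the subunits together and carry the ribosome along. Initiation factors had 33 of 33 measured genes past the filter, 0 that were 2-fold apart and a median of 0.05, which turned to -0.0024 with the second brightest probe sets. Eif3b, a scaffold subunit of the factor that holds the small subunit, was 8.51 in Tg against 7.66 in non-Tg (0.85), and the helicase gene Eif4a2 was 10.82 against 10.31 (0.52). Eif4h (-0.71), which assists that helicase, and Eif2b3 (-0.70), of the guanine nucleotide exchange factor, were lowest. Elongation and release factors had 13 of 13 past the filter, 0 that were 2-fold apart and a median of -0.04. Abce1, which splits finished ribosomes, had 0.46 and the translocation factor gene Eef2 0.17. Eif5a (-0.51) and Btf3 (-0.38) were lowest, but their second brightest probe sets had -0.02 and -0.07.

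The kinases and regulators that act on ribosomal proteins had 16 of 17 measured genes past the filter, 0 that were 2-fold apart and a median of -0.02, which turned to 0.07 with the second brightest probe sets. Rps6kb2 (0.64) and Rps6ka3 (0.60), both kinases that phosphorylate Rps6, were highest, and the mTOR subunit gene Mlst8 (-0.60) and Myc (-0.57), which activates ribosomal genes, were lowest. Mtor itself read 6.03 (Tg) and 6.05 (non-Tg), and the ratio of Larp1 was -0.18. The shares of genes 2-fold apart in these lists are to be read beside the background of 0.797% higher and 0.376% lower; a share near it is no result about a list.

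**Figure D5:**
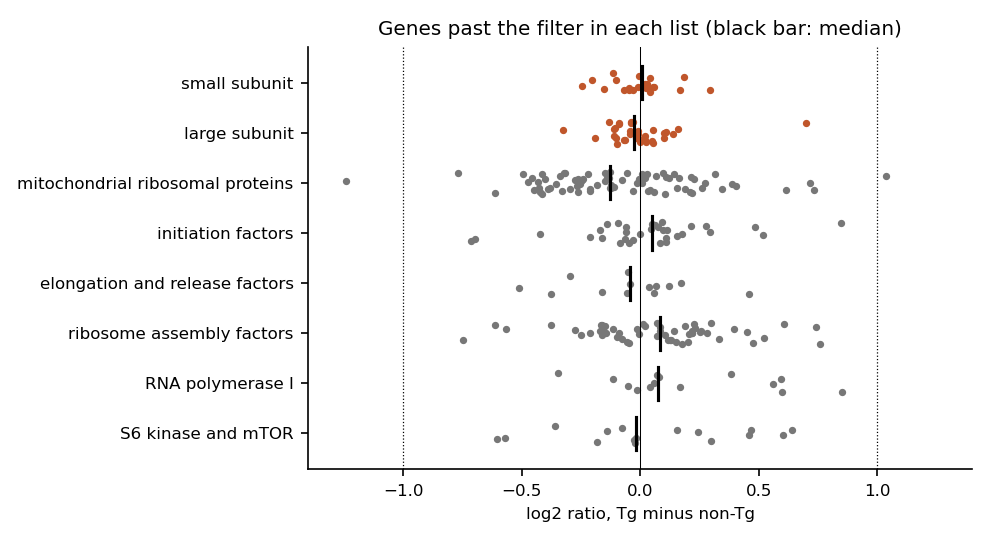
Log2 ratio (Tg minus non-Tg, horizontal axis) of the genes past the filter in each list, with ribosomal proteins in orange and other lists in grey. Black bars are medians and dotted lines mark 2-fold. The 22 small and 34 large subunit genes lie in a narrower band than the 77 mitochondrial ribosomal protein genes, whose median is -0.13.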

How the data were processed

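The authors deposited 1 value per probe set and array, on a log2 scale inferred from the range (4.22 to 13.7), for 28856 probe sets. The background correction, normalization and software were not given in the sources used here. Total RNA (400 pg, per the labels' protocols) was amplified with the Ovation One-Direct system. Depth does not apply to arrays, and precision was limited by their number. The platform annotation in GEO gave 1 symbol to 21789 probe sets, several to 1621 and none to 5446, and all 59 members matched RefSeq (GRCm38.p6) by gene ID. No test was possible: log2 ratios, a floor at the 25th and a filter at the 50th percentile, and folds of 2, 1.5 and 1.2 were used. The code was checked by simulating known folds. It ran in Python 3.11.15 (pandas 2.3.3, numpy 2.4.6, matplotlib 3.10.9). Named genes were the 10 highest and 10 lowest ratios, members 1.5-fold apart or under the filter, all of the listed structural groups, X-linked genes and copies, and the extremes of each pathway list. Members and lists were chosen with earlier results of these data known. Alternatives concerned probe set choice, scaling, floor, filter and membership.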

Additional observations from a re-analysis of the deposited data

How the results depend on the processing

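Of 141 values for the family and the lists recomputed under alternatives, 126 moved by no more than 0.0339 (the probe set spread of ribosomal protein genes) or, for counts, by no more than 1.5 times, and 15 moved further. That spread is of single probe sets and is wide for a median, so ranges are given too. The family median lay between -0.02 and 0.01, above 0 under 1 of 11 alternatives, that of the small subunit between -0.01 and 0.03, below 0 under 3, and that of the large subunit between -0.03 and -0.00223. The mean of all probe sets gave a median of -0.00211 for initiation factors, 0.11 for RNA polymerase I and 0.0703 for S6 kinase and mTOR genes. The second brightest probe set gave -0.0024 for initiation factors and 0.0703 for S6 kinase and mTOR genes. With a filter at the 75th percentile, elongation factors had -0.00285, RNA polymerase I 0.28 and S6 kinase and mTOR genes -0.0758. With the second brightest probe set, 5 genes were 1.2-fold apart in place of 3. With a filter at the 75th percentile on both arrays, which drops Rpl12, 0 of 53 genes were 1.5-fold apart in place of 1 and the SD of the ratio was 0.107. With probe sets of several symbols, 0 of 72 genes were 1.5-fold apart and the SD was 0.105. With members of a mean level of at least 9 only, an alternative chosen after seeing the data, 0 of 48 were 1.5-fold apart and the SD was 0.102. The counts of 0 ribosomal protein genes at 2-fold held under every alternative tried. Single gene values moved beyond the probe set spread (0.0339 for ribosomal protein genes, 0.311 for others) or lost a 2-fold call in 25 of 394 cases, 23 of them in ribosomal protein genes. The call lost was that of Mrps18a (0.99 with quantile normalization), and 0 of the genes 2-fold apart reversed. Reversal was counted only for such genes, and no ribosomal protein gene was among them. Some smaller ratios did change sign. With the second brightest probe set Rps4x went from 0.06 to -0.01 and Rpsa from -0.07 to 0.0032. No paired analysis was possible because each group has 1 array, and no replicate could be left out for the same reason. Values near the floor limit what can be seen in dim genes such as Rpl39l.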
